A study of Mus musculus with 13 samples.

Results

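Loss of Ccm3 (gene symbol Pdcd10) from brain endothelial cells was examined at normal oxygen, by setting 3 KO brain libraries against 3 flox brain libraries of the same count table. These 6 libraries were taken by their labels and column names from the 13 of the series. The KO mice carried the Slco1c1-iCreERT2 transgene and loxP-flanked Pdcd10 on both alleles (Slco1c1-iCreERT2;Pdcd10fl/fl), and the flox mice carried only the loxP-flanked alleles (Pdcd10fl/fl). The Slco1c1 promoter restricts the tamoxifen-dependent Cre mainly to brain endothelium. Per the design text, 50 µg of 4-hydroxytamoxifen was given into the stomach on postnatal day 1. All 6 animals were kept in 21% oxygen, and their age at harvest is not given in the sources used here. For comparison, 4 KO and 3 flox libraries came from mice held in 12% oxygen for 7 days.

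CCM3 is an adaptor protein that binds the germinal centre kinases of the STRIPAK complex and also joins CCM1 and CCM2, and the CCM complex restrains MEKK3 signalling to the transcription factors KLF2 and KLF4 in endothelium. Its loss from brain endothelium in early life gives cerebral cavernous malformations, which are clusters of dilated, thin-walled venous capillaries that leak blood. Around such lesions, astrocytes become reactive and microglia and blood-borne leukocytes gather. The endothelial and astrocytic side of this response is well described; the account below gives most room to genes of neurons, oligodendrocytes and the clock that were lower in KO brain, and to the higher genes that are neither endothelial markers nor Gfap.

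Messenger RNA was measured in bulk brain tissue. Fewer cells of a type and less RNA per cell therefore cannot be told apart in any value below. Of 18 genes listed for cerebellum and hindbrain, 7 were too low to be tested, among them Gabra6 and Barhl1. Which parts of the brain the tissue held was not tested. Levels are given as CPM, assigned reads scaled to a common library total, after scaling for library composition. Total counts ran between 47266384 and 71216636 in KO libraries and between 56177845 and 67563589 in flox libraries, so that 3 reads corresponded to 0.0421 to 0.0635 CPM. The labels name no animal, so p-values measure the spread between libraries. Each KO library also carried the Cre transgene, and its effect cannot be told apart from that of Pdcd10 loss. Pdcd10 itself had 16.2, 18.1 and 16.4 CPM in KO libraries and 17.8, 17.3 and 16.2 CPM in flox libraries, a log2 fold change of −0.02 ± 0.07 (SE, edgeR adjusted p = 0.962). The deletion was thus not seen in these whole-tissue values. Counts were per gene, and the loxP-flanked part was not examined. Several libraries stood apart. The third library of each group held Xist and no Y-linked transcripts although all animals are labelled male. Flox library 3 had a summed level of 21 immediate early genes of 3444 CPM, against 1527 and 1319 CPM in the other flox libraries and 1605 to 1886 CPM in KO libraries. KO library 2 had a summed choroid plexus level of 203 CPM, against 633 and 706 CPM in the other KO libraries and 646 to 828 CPM in flox libraries.

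Of 22507 genes tested with edgeR's quasi-likelihood test at an adjusted p of 0.05, 441 were higher in KO and 83 were lower, which is 1.96% and 0.369% of the genes tested. The 2 directions differed in size of change and in level. Genes that rose did so by a median of 0.86 on the log2 scale, and 174 of the 441 by at least 1. Genes that fell did so by a median log2 change of −0.36, 58 of the 83 by less than 0.5 and 11 by 1 or more. The lower genes were also more abundant, at a median of 32.1 CPM in flox libraries, against 4.8 CPM for the higher genes and 7.9 CPM for all genes tested. In KO libraries the medians lay closer together, at 24.7 CPM for the lower genes and 8.87 CPM for the higher genes. The summed exons of the lower genes had a median length of 6718 bases, against 3848 bases for the higher genes and 3313 bases for all genes. How far the power to call small changes at high counts shaped these medians was not tested. Among genes over 100 CPM in flox libraries, 17 of 2264 were higher and 19 were lower; among genes of 1 to 10 CPM, 221 of 6029 were higher and 17 were lower. All 83 lower genes had every KO library below every flox library, an arrangement found in 8.7% of all genes tested, and 10.5% of all genes had every KO library above every flox library. At an unadjusted p under 0.05, 1762 of all genes tested were higher and 1291 were lower. These numbers over all genes are the background for each count of list members below. The number of lower genes moved with single libraries: it was 25 without KO library 1, 30 without KO library 2, 34 without flox library 1 and 47 without flox library 3. The number of higher genes was 235 without KO library 1, 269 without KO library 2 and 216 without flox library 1. With each of the 6 libraries left out in turn, 14 of the 83 lower genes and 176 of the 441 higher genes kept their call every time. The libraries without which a named gene lost its call are given beside it.

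**Figure D1:**
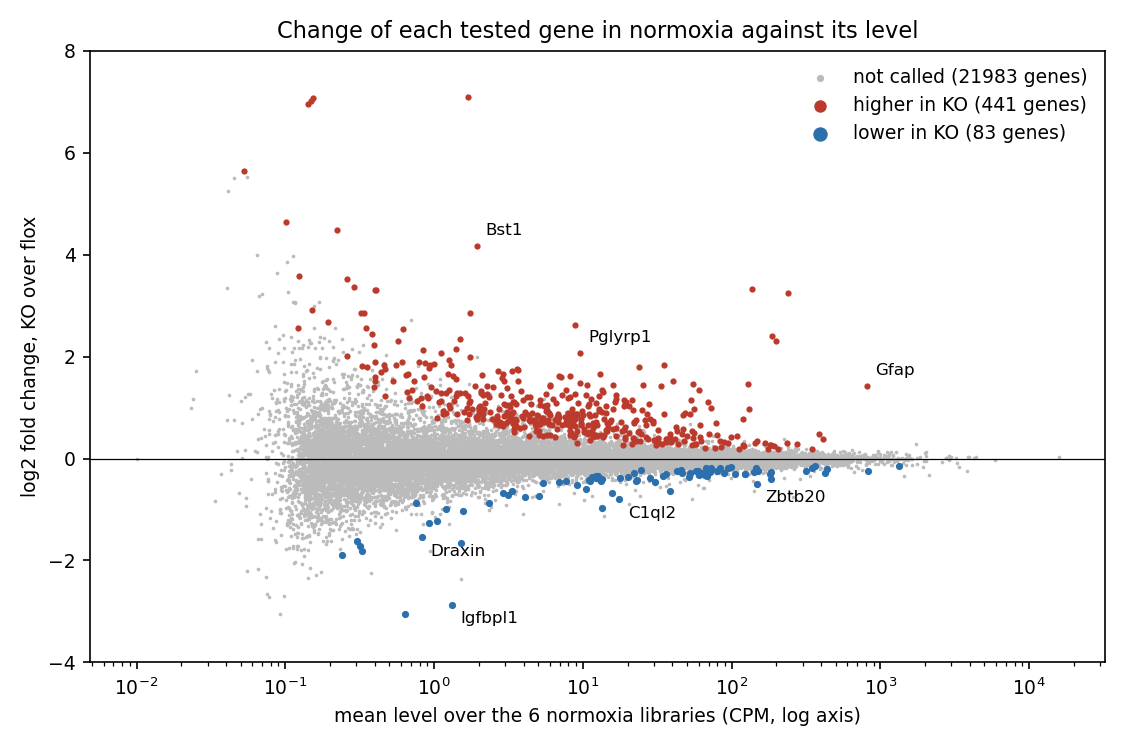
Each point is one tested gene, with its mean level over the 6 normoxia libraries in CPM on a log axis and its log2 fold change, KO over flox. The 441 higher genes (red) reach their highest folds at low levels, whereas the 83 lower genes (blue) lie mostly close under 0 and extend further to the right.

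Of the 12 lower genes called under all 18 alternative analyses, 5 were genes of dentate granule cells, the excitatory neurons of the hippocampal dentate gyrus whose axons, the mossy fibres, project to field CA3. Of 22 genes listed for these cells, 5 fell and 0 rose, against 0.369% and 1.96% of all genes tested, and 5 fell with any one of the 6 libraries left out. C1ql2, a secreted C1q-like protein that gathers glutamate receptors at mossy fibre synapses, had 13.2, 12.6 and 12.9 CPM in KO libraries, against 22.7, 22.5 and 21.7 CPM in flox libraries. The values within each group lay close together and the groups far apart, with the KO level 42.2% lower (log2 fold change −0.79 ± 0.10, adjusted p = 0.00053). Prox1, the homeobox factor that sets granule cell identity, had 29.8, 28.3 and 32.5 CPM in KO libraries and 51.7, 50.0 and 38.8 CPM in flox libraries (−0.63 ± 0.10, adjusted p = 0.00257). Flox library 3 lay closest to the KO libraries for Prox1, and without it the change was −0.75. Dsp, the desmosomal linker desmoplakin, had 9.99, 7.93 and 9.34 CPM in KO libraries and 19.9, 19.5 and 13.8 CPM in flox libraries (−0.97 ± 0.14, adjusted p = 0.00102). It showed the same lower value in flox library 3, which still stood above all KO libraries.

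Zbtb20, a zinc finger repressor needed for hippocampal neurons, was the most abundant of the 5, with 114, 123 and 130 CPM in KO libraries and 173, 179 and 166 CPM in flox libraries (−0.49 ± 0.09, adjusted p = 0.00555). Dock10, an exchange factor for small GTPases that acts in dendritic spines, had 45.9, 43.7 and 46.2 CPM in KO libraries and 60.2, 60.1 and 54.3 CPM in flox libraries (−0.36 ± 0.05, adjusted p = 0.00118). The list did not move as one: its median was −0.146, against −0.00357 over all genes tested. Of its 22 members, 18 lay below 0 and 9 had every KO library below every flox library, beside 8.7% of all genes tested. Lct, the disaccharidase lactase, had 7.54, 7.70 and 7.52 CPM in KO libraries and 12.8, 8.61 and 9.59 CPM in flox libraries, and did not pass (−0.45, adjusted p = 0.146). The abundant member Nptx1, a neuronal pentraxin, gave −0.02 (adjusted p = 0.908), and Pitpnm2 gave −0.08 (adjusted p = 0.553). The calcium buffer Calb1 and the C1ql2 relative C1ql3, named after their values were seen, gave 0.02 and 0.02.

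Markers of the neighbouring hippocampal fields and of other regions were set beside this. Of 20 genes of the CA fields, 1 was lower, and that was Zbtb20, which is on both lists; their median was −0.0178. Of 21 genes of cortical excitatory neurons, 0 were called by edgeR and 0 by DESeq2, with 3 at an unadjusted p under 0.05 and a median of 0.0188. Of 18 genes of striatal projection neurons, 0 were called by either tool, with 1 at an unadjusted p under 0.05 and a median of −0.0863. Neurod1, a transcription factor of granule cells and other neurons, had 17.3, 15.7 and 17.4 CPM in KO libraries and 18.5, 16.6 and 17.6 CPM in flox libraries. Whether the share of dentate gyrus in the dissected tissue differed between the groups was not tested.

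**Figure D2:**
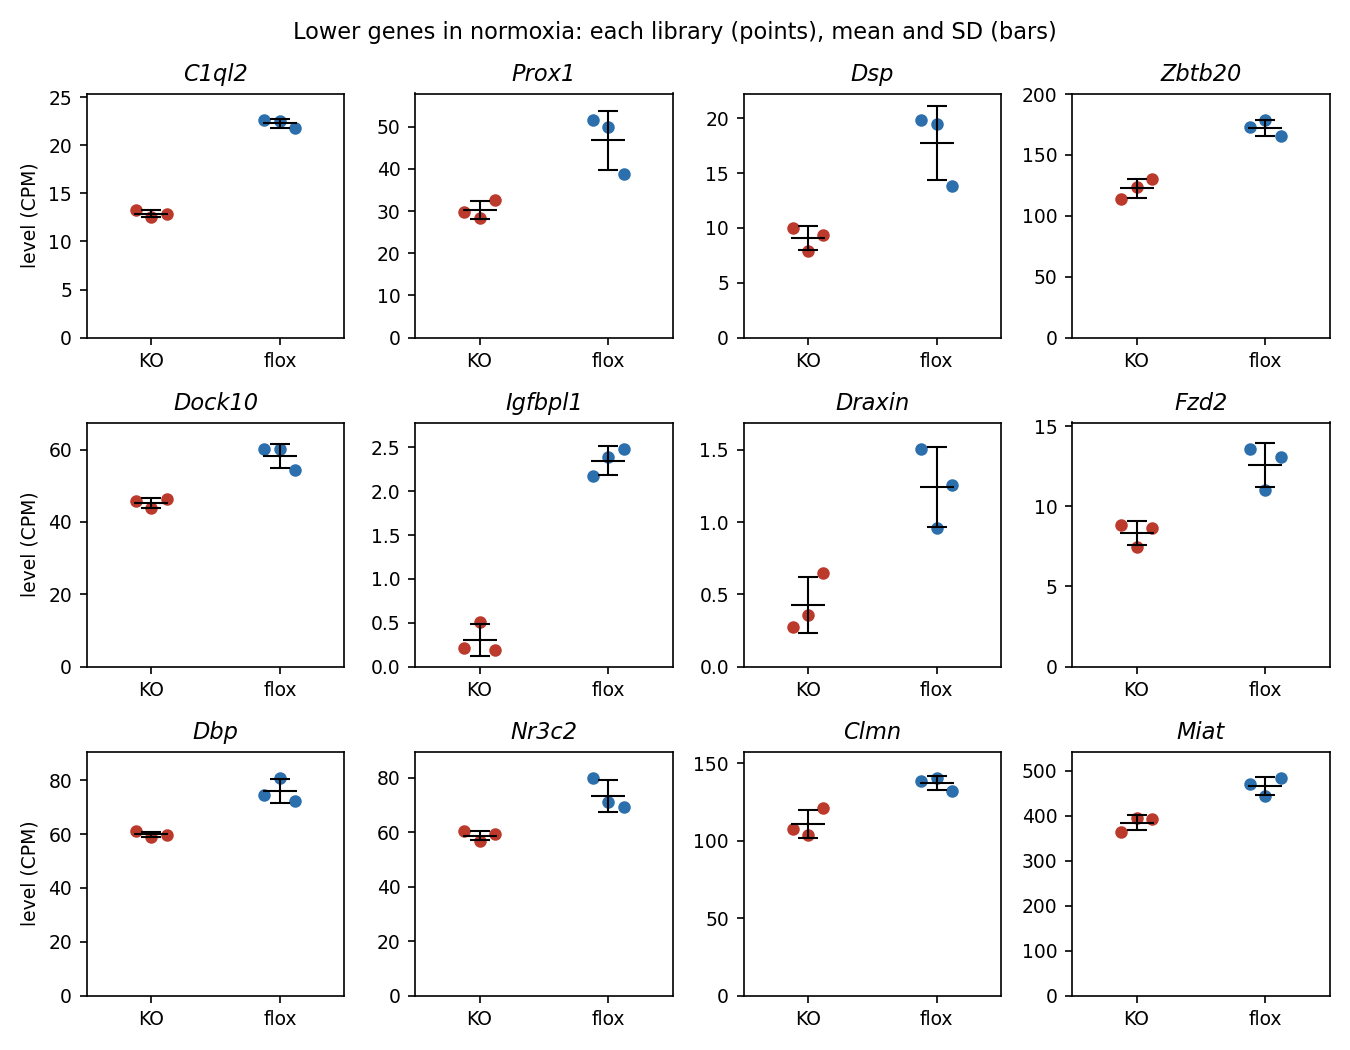
Level in CPM of 12 of the most stable lower genes, with KO left of flox. Points are the 3 libraries of a group, the horizontal bar is their mean and the error bar 1 SD. No KO point reaches a flox point in any panel, which holds for all 83 lower genes.

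Of 20 genes listed for adult neurogenesis, 3 fell and 1 rose, against 0.369% and 1.96% of all genes tested, and 8 lay above 0. Igfbpl1, an IGF-binding-protein-like secreted protein expressed in neuroblasts, was counted 10, 36 and 9 times in KO libraries, against 121, 135 and 166 times in flox libraries. These counts correspond to 0.212, 0.513 and 0.188 CPM in KO libraries and 2.17, 2.39 and 2.48 CPM in flox libraries (−2.87 ± 0.29, adjusted p = 0.000107). KO library 2 was the highest of its group for Igfbpl1 and still lay far under the lowest flox library. Draxin, a repulsive axon guidance cue that binds netrin receptors, had 0.275, 0.356 and 0.649 CPM in KO libraries and 1.51, 0.956 and 1.26 CPM in flox libraries (−1.55 ± 0.28, adjusted p = 0.00651). Both were called under all 18 alternatives. Sox11, a SoxC transcription factor of immature neurons, had 19.4, 17.5 and 20.8 CPM in KO libraries and 25.5, 22.2 and 30.5 CPM in flox libraries (−0.44, adjusted p = 0.0400), and kept its call in 1 of the 6 fits with a library left out, the one without flox library 2; without flox library 3 it gave −0.31 (adjusted p = 0.174).

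The other 16 members did not pass. Eomes, the T-box factor of intermediate progenitors, was counted 10, 12 and 0 times in KO libraries and 38, 36 and 38 times in flox libraries (adjusted p = 0.0771). Dcx, the microtubule-binding doublecortin of migrating neuroblasts, had 34.4, 44.3 and 44.5 CPM in KO libraries and 46.9, 50.2 and 50.6 CPM in flox libraries (−0.26, adjusted p = 0.112). The proliferation genes Mki67 and Top2a overlapped between groups, at −0.10 and −0.07, and lay above 0 without flox library 3 (0.09 and 0.16). Nes, the intermediate filament nestin of neural stem cells and also of new vessels and reactive astrocytes, was the member that rose: 23.8, 27.3 and 27.2 CPM in KO libraries against 10.1, 9.58 and 17.4 CPM in flox libraries (1.07, adjusted p = 0.0102), with the call lost without flox library 1. The median of the list was −0.0751, with 7 of 20 members having every KO library below every flox library, beside 8.7% of all genes tested.

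Lower genes were also found among those of the circadian clock. In the molecular clock, CLOCK and BMAL1 (Arntl) bind E-boxes with the core CACGTG and drive the period, cryptochrome and PAR bZIP genes, several of which feed back on them. Tissue therefore reads the phase of this cycle at harvest; the hour of harvest is not given in the sources used here. E-box matches are shown for 2 of the lower clock genes, Ciart and Tef, from RefSeq promoters of GRCm38.p6, with the CACGTG core in capitals. The window for Ciart is chr3:95882252-95882359 on the minus strand and that for Tef is chr15:81802531-81802566 on the plus strand.
Ciart: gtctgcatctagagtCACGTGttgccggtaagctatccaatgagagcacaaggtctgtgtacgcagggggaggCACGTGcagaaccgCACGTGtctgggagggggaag
Tef: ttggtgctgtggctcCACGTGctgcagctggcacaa
CACGTG, which reads the same on both strands, was found between 250 bases before and 50 bases after the start in 5 of the 15 clock genes with a promoter on file (33.3%), and in 10.6% of the 13753 tested genes with one. The 3 copies in Ciart lie 116 to 44 bases before its start, and the single copy in Tef lies 127 bases before. Of the 4 lower clock genes, 2 held the motif; a match is a description of the letters and not of binding.

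Of 18 clock genes tested, 4 fell and 0 rose, against 0.369% and 1.96% of all genes tested. Dbp, a PAR bZIP activator and one of the most strongly cycling outputs of the clock, had 61.0, 59.0 and 59.6 CPM in KO libraries and 74.5, 81.0 and 72.3 CPM in flox libraries (−0.34 ± 0.05, adjusted p = 0.00301), and was called under all 18 alternatives. Tef, a second PAR bZIP factor, had 345, 334 and 354 CPM in KO libraries and 384, 375 and 388 CPM in flox libraries (−0.15 ± 0.04, adjusted p = 0.0496). Its call was lost with a replicate block (adjusted p = 0.0828) and without any one of the 6 libraries. Per3, a period gene, had 42.8, 48.6 and 50.1 CPM in KO libraries and 57.7, 58.2 and 55.9 CPM in flox libraries (−0.28, adjusted p = 0.0302), and kept its call only without KO library 3.

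Ciart, a repressor of CLOCK and BMAL1, had 12.4, 10.3 and 13.5 CPM in KO libraries and 14.8, 17.9 and 24.7 CPM in flox libraries (−0.67 ± 0.15, adjusted p = 0.0263). The highest value came from flox library 3, the library with high immediate early genes, and without it Ciart gave −0.44 (adjusted p = 0.0985); its call was also lost without KO library 1 or 2. Per1 and Per2, which respond to neuronal activity as well as to the clock, were also highest there: Per1 had 114, 100 and 118 CPM in KO libraries and 132, 120 and 260 CPM in flox libraries, and neither passed (adjusted p = 0.142 and 0.219). Without flox library 3, Dbp was still lower (−0.38, adjusted p = 0.0045), while Per3 gave −0.30 (adjusted p = 0.0542) and Tef −0.14 (adjusted p = 0.152).

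Arntl and Npas2, of the opposite arm of the loop, did not pass. Arntl had 33.2, 32.1 and 28.1 CPM in KO libraries and 29.3, 23.5 and 24.9 CPM in flox libraries (0.27, adjusted p = 0.159), and its relative Npas2 gave 0.22 (adjusted p = 0.104), with every KO library above every flox library. The REV-ERB repressors Nr1d1 and Nr1d2 moved in the same direction as Dbp, at −0.19 and −0.18, and did not pass either (adjusted p = 0.13 and 0.0563). For both, every KO library lay below every flox library. In all, 10 of 18 clock genes had every KO library below every flox library, beside 8.7% of all genes tested. Leaving out a library cannot undo such an order apart from rescaling, so only the calls were compared between those fits. The number of lower clock genes was 1 without KO library 1, 1 without KO library 2, 2 without flox library 1 and 2 without flox library 3.

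**Figure D3:**
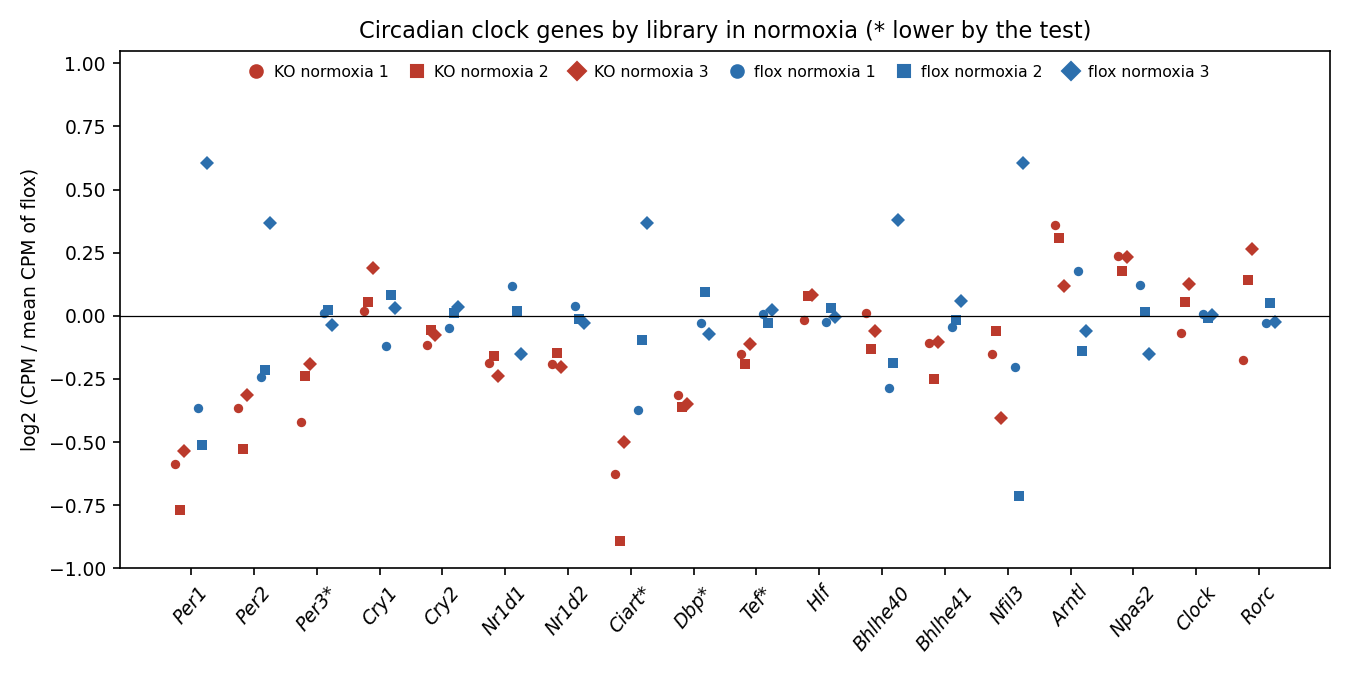
Level of 18 clock genes in each normoxia library as log2 of its CPM over the mean of the 3 flox libraries, KO left of flox within each gene; stars mark the 4 lower genes. Dbp, Tef, Per3, Ciart, Per1, Nr1d1 and Nr1d2 are among the 10 genes with every KO library below every flox library. Per1, Per2, Nfil3 and Bhlhe40 stand out as high in flox library 3.

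Of 24 genes of myelin and mature oligodendrocytes, 2 fell and 0 rose, against 0.369% and 1.96% of all genes tested. Of the 24, 23 lay below 0, with a median of −0.301 against −0.00357 over all genes. The members ran between −0.423 and 0.143, and their summed level overlapped between groups, at 4936 to 6020 CPM in KO libraries and 5811 to 7593 CPM in flox libraries. Mag, myelin-associated glycoprotein, had 163, 168 and 143 CPM in KO libraries and 180, 212 and 234 CPM in flox libraries (−0.40, adjusted p = 0.0421). Myrf, the transcription factor that drives myelination, had 50.7, 55.2 and 54.2 CPM in KO libraries and 63.6, 69.3 and 68.2 CPM in flox libraries (−0.33, adjusted p = 0.0364). The abundant member Mbp, myelin basic protein, stood at 1697 to 2115 CPM in KO libraries and 2055 to 2669 CPM in flox libraries and did not pass (−0.32, adjusted p = 0.125). The calls were not stable: 0 myelin genes were called without KO library 1, 2 or 3 or without flox library 2 or 3, and 5 without flox library 1, among them Mag but not Myrf; with all libraries 18 of 24 had an unadjusted p under 0.05, and DESeq2 called 9. The median with 1 library left out ran between −0.382 and −0.206. Of 16 genes of oligodendrocyte precursors, 0 were called by edgeR or DESeq2 and 0 had an unadjusted p under 0.05, with a median of −0.0249.

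Most lower genes, 66 of 83, belonged to none of the 63 gene lists used, and 14 were predicted genes or clone names. Nr3c2, the mineralocorticoid receptor, had 60.4, 56.8 and 59.3 CPM in KO libraries and 80.1, 71 and 69.2 CPM in flox libraries (−0.32 ± 0.06, adjusted p = 0.00498). Hsd11b1, the reductase that regenerates active glucocorticoid from its inert form, had 10.9, 12.3 and 10.6 CPM in KO libraries and 15.7, 14.5 and 15.4 CPM in flox libraries (−0.43 ± 0.09, adjusted p = 0.0133), with the call lost without KO library 1 or 3 or flox library 1. For both, as for all 83 lower genes, the KO and flox values did not overlap. Of 20 genes induced by glucocorticoids, 1 rose (Fam107a, an actin-bundling protein of astrocytes, 0.39, adjusted p = 0.0151, kept only without KO library 3 or flox library 2) and 0 fell, and the best known one, Fkbp5, gave 0.04.

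Fzd2, a Wnt receptor, had 8.85, 7.47 and 8.65 CPM in KO libraries and 13.6, 11.0 and 13.1 CPM in flox libraries (−0.60 ± 0.10, adjusted p = 0.00456) and was called with any one library left out. In the TGF-beta family, the activin receptor Acvr2b had 5.25, 6.23 and 5.86 CPM in KO libraries and 8.90, 7.86 and 7.29 CPM in flox libraries (−0.47, adjusted p = 0.0145), with the call lost without KO library 1 or flox library 1. Gdf10, a ligand related to BMP3, had 6.54, 6.96 and 6.24 CPM in KO libraries and 9.37, 9.85 and 7.47 CPM in flox libraries (−0.43, adjusted p = 0.0441). The ephrin receptor Epha8 fell by 0.43 on the log2 scale (adjusted p = 0.0495) and the ephrin Efnb3, named after its values were seen, by 0.30 (adjusted p = 0.0325, and 0.0617 with a replicate block). Gdf10 and Epha8 kept their call only without flox library 3, and Efnb3 only without KO library 1 or flox library 1. These 5 genes, like all 83 lower genes, had no KO library inside the flox range.

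Of 24 genes of synapses and glutamate receptors, 1 fell and 0 rose, with a median of −0.0457. The lower member was Shank1, a postsynaptic scaffold, with 753, 771 and 723 CPM in KO libraries and 935, 827 and 905 CPM in flox libraries (−0.25, adjusted p = 0.0323), and kept its call only without flox library 2. Outside the list, Syt7, a calcium sensor of slow transmitter release, had 400, 407 and 417 CPM in KO libraries and 473, 465 and 466 CPM in flox libraries (−0.20 ± 0.04, adjusted p = 0.00694). This change was small. As for all 83 lower genes, its KO and flox values did not overlap. The long noncoding RNA Miat had 365, 395 and 392 CPM in KO libraries and 469, 444 and 484 CPM in flox libraries (−0.28, adjusted p = 0.00536). Clmn, which encodes the actin-binding membrane protein calmin, had 107, 104 and 121 CPM in KO libraries and 138, 141 and 132 CPM in flox libraries (−0.31, adjusted p = 0.00739). Both Miat and Clmn were called under all 18 alternatives.

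Some further small changes, named here after their values were seen, were in single genes of chromatin, RNA processing and DNA repair, for which no list was used. The histone H3 lysine methyltransferases Kmt2b, Kmt2d and Dot1l fell by 0.28, 0.31 and 0.30 on the log2 scale (adjusted p = 0.00814, 0.0364 and 0.0137). Kmt2b had 75.8, 80.7 and 86.1 CPM in KO libraries and 99.3, 96.2 and 98.3 CPM in flox libraries, and lost its call without KO library 1. Kmt2d kept its call in 0 of the 6 fits with a library left out, and Dot1l in 2. Snrnp70, a subunit of the U1 splicing particle, fell by 0.19 (adjusted p = 0.0375) and Leng8 by 0.25 (adjusted p = 0.0134). Prkdc, the catalytic subunit of the DNA-dependent protein kinase, had 30.3, 32.5 and 34.2 CPM in KO libraries and 40.1, 40.5 and 38.4 CPM in flox libraries (−0.29, adjusted p = 0.0201). Myt1 and its relative St18, zinc finger factors of neural differentiation, fell by 0.34 and 0.39 (adjusted p = 0.0265 and 0.0342, and 0.0504 and 0.0534 with a replicate block). With a library left out, Snrnp70 kept its call in 0 of the 6 fits, Leng8 in 3, Prkdc in 2 and Myt1 and St18 in 1 each. All of these lost it without KO library 1.

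Of 20 homeostatic astrocyte genes, 1 fell. This was Gja1, the main astrocyte connexin, which had 164, 165 and 172 CPM in KO libraries and 191, 200 and 208 CPM in flox libraries (−0.26 ± 0.05, adjusted p = 0.0132) and lost its call without KO library 1 or 2 or flox library 3. Of the other 19 homeostatic astrocyte genes, 2 rose and none fell: S100b, a calcium-binding protein, by 0.44 (adjusted p = 0.0265) and Acsbg1, an acyl-CoA synthetase, by 0.25 (adjusted p = 0.0252). Both lost their call without KO library 1, KO library 2 or flox library 1, and Acsbg1 also without flox library 3. Gkn3, Crb1 and Sspo fell and were on none of the lists. Gkn3, which in mouse brain marks arterial endothelium, was counted 9, 5 and 8 times in KO libraries and 46, 32 and 135 times in flox libraries (−3.05 ± 0.56, adjusted p = 0.00814). The high count came from flox library 3; without it the change was −2.32 (adjusted p = 0.0398), and without KO library 2 the call was lost (adjusted p = 0.0529). This fall stood against 18 of 20 pan-endothelial markers that rose and 0 that fell.

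Crb1, a Crumbs polarity protein of retinal glia and neural progenitors, was counted 36, 42 and 40 times in KO libraries and 88, 169 and 153 times in flox libraries (−1.65 ± 0.33, adjusted p = 0.0142). Its call was lost without KO library 1, KO library 2 or flox library 2 (adjusted p = 0.0575, 0.0786 and 0.064). Sspo, which encodes SCO-spondin of the subcommissural organ, had 3.22, 3.29 and 2.62 CPM in KO libraries and 5.46, 4.69 and 5.31 CPM in flox libraries (−0.76, adjusted p = 0.0261), and kept its call only without flox library 2. Of 16 choroid plexus genes, 0 fell and 1, coagulation factor F5, rose. Their median was −0.653 with all libraries and −0.156 without KO library 2, in which Ttr, the choroidal carrier transthyretin, had 1.95 CPM against 278 and 297 CPM in the other KO libraries and 284 to 373 CPM in flox libraries.

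Among the 63 lists, the interferon response had the most higher genes after the 18 of the pan-endothelial list. It was also one of the longest lists. Shorter ones had a larger share higher, such as 8 of 12 pericyte genes and 8 of 16 genes of blood-brain barrier transport. Of 28 interferon-response genes, 11 rose and 0 fell, against 1.96% and 0.369% of all genes tested. All 28 lay above 0, with a median of 0.806. In 22, every KO library lay above every flox library, beside 10.5% of all genes tested. Type I interferons act through a complex that holds STAT2 and IRF9 and binds the interferon-stimulated response element, with the core GAAANNGAA, in front of many of these genes. The motif is shown in capitals in RefSeq promoters of GRCm38.p6 for 3 of the genes that rose: Gbp3 at chr3:142559985-142560029 on the plus strand, where 2 overlapping copies lie on the other strand, Oas1a at chr5:120907526-120907560 on the minus strand with 2 overlapping copies, and Cxcl10 at chr5:92349079-92349117 on the minus strand with 1 copy.
Gbp3: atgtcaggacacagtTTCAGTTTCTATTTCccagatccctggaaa
Oas1a: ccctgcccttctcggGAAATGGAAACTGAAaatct
Cxcl10: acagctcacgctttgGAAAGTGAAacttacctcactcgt
On either strand, GAAANNGAA was found in 15 of the 22 listed genes with a promoter on file (68.2%), against 8.89% of the 13753 tested genes with one. It was present in 7 of the 10 that rose and in 8 of the 12 that did not pass.

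Ifitm3, a membrane protein that blocks virus entry and is also expressed by vessels, had 12.8, 11.1 and 13.8 CPM in KO libraries and 4.85, 5.42 and 5.39 CPM in flox libraries (1.26, adjusted p = 0.000172). Gbp3, a guanylate-binding GTPase, had 6.69, 7.65 and 6.93 CPM in KO libraries and 2.94, 4.04 and 2.65 CPM in flox libraries (1.15, adjusted p = 0.000457). Oas1a, which makes the activator of RNase L, rose by 1.34 (adjusted p = 0.0149). Trim30a, a TRIM-family regulator of innate immunity, rose by 1.22 (adjusted p = 0.00663). Cxcl10, the chemokine that draws CXCR3-bearing T cells, had 0.699, 1.25 and 0.9 CPM in KO libraries and 0.215, 0.319 and 0.0599 CPM in flox libraries (2.30 ± 0.47, adjusted p = 0.0146). Irf7, the amplifier of the type I response, had 3.01, 3.58 and 5.25 CPM in KO libraries and 1.27, 2.11 and 1.62 CPM in flox libraries (1.24, adjusted p = 0.0154). The call of Oas1a was lost without KO library 2 or 3 or flox library 1 or 3, that of Cxcl10 without KO library 2 or flox library 1 or 3, and that of Irf7 without KO library 3 or flox library 1 or 3. Ifi44 and Slfn2, interferon-induced genes outside the list, rose by 2.07 and 2.34 (adjusted p = 0.00826 and 0.00704), Ifi44 losing its call without flox library 1. Stat2 itself did not pass, at 0.19 (adjusted p = 0.271). The number called was 5 without KO library 3, 3 without flox library 1 and 6 without flox library 3, while the median with 1 library left out stayed between 0.651 and 0.876.

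Of 19 genes of antigen presentation, 6 rose and 0 fell, with a median of 0.675. Cd74, the invariant chain of MHC class II, had 13.2, 8.68 and 10.4 CPM in KO libraries and 4.34, 3.05 and 3.19 CPM in flox libraries (1.61, adjusted p = 0.00414). The class II chains H2-Aa, H2-Ab1 and H2-Eb1 rose by 1.72, 1.38 and 1.65 (adjusted p = 0.00857, 0.0364 and 0.0355), and the class I genes H2-K1 and B2m by 0.96 and 0.50 (adjusted p = 0.00681 and 0.0142). With a library left out, H2-Ab1 kept its call in 1 of the 6 fits (without KO library 2), H2-Eb1 in 2 (without KO library 2 or flox library 1) and B2m in 4 (lost without KO library 1 or flox library 1). Reads may be shared between the near-identical H2-Q genes, and none of those passed. Without KO library 1 the number called was 3, and with only the libraries holding Y-linked transcripts it was 0; that fit called 3 interferon genes. Of 16 complement genes, 2 rose. One was C4b, which had 76.8, 63.5 and 80.1 CPM in KO libraries and 29.7, 42 and 27.1 CPM in flox libraries (1.16, adjusted p = 0.00091).

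Immune cell markers were given beside these groups. All 16 homeostatic microglia genes lay above 0, with a median of 0.229; 0 passed edgeR, 10 had an unadjusted p under 0.05 and DESeq2 called 1. Their summed level was 525 to 553 CPM in KO libraries and 439 to 471 CPM in flox libraries. Csf1r, the receptor that microglia need to survive, had 114, 113 and 107 CPM in KO libraries and 91.5, 90.9 and 99.6 CPM in flox libraries. Of 12 genes of border-associated macrophages, 2 rose: Mrc1, the mannose receptor, by 0.85 (adjusted p = 0.0219) and Siglec1, a sialic acid receptor, by 2.12 (adjusted p = 0.00589). Lyz2, lysozyme of myeloid cells, was the 1 of 18 disease-associated microglia genes that rose, with 9.93, 9.68 and 11.1 CPM in KO libraries and 3.93, 5.10 and 3.89 CPM in flox libraries (1.25, adjusted p = 0.0358). Cybb, the catalytic subunit of the phagocyte oxidase, rose by 1.93 (adjusted p = 0.0118) and Il2rg, the common cytokine receptor chain, by 1.86 (adjusted p = 0.0229). Of these, Lyz2 lost its call without any one of the 6 libraries, Mrc1 kept it only without KO library 2, Il2rg only without flox library 2, and Cybb lost it without flox library 1. The part of cell number in these changes was not tested.

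Lymphocyte genes were counted at low levels. Cd79b, a signalling chain of the B-cell receptor, was counted 21, 35 and 34 times in KO libraries and 3, 13 and 12 times in flox libraries (1.81, adjusted p = 0.0352), and kept its call only without flox library 2. The T-cell genes Cd3d, Cd3e and Cd3g were too low to be tested, and Cd8a stood at 0.0419 to 0.143 CPM in KO libraries and 0 to 0.106 CPM in flox libraries.

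Red cell transcripts gave the highest median of the 63 lists, 1.71, with 5 of 10 erythroid genes higher. Hba-a1 had 549, 306 and 449 CPM in KO libraries and 35.5, 44.8 and 57.2 CPM in flox libraries (3.24 ± 0.51, adjusted p = 0.00271); its near-identical copy Hba-a2 can share its reads. Alas2, the first enzyme of heme synthesis in red cell precursors, had 18, 10.3 and 17.3 CPM in KO libraries and 1.62, 2.76 and 2.96 CPM in flox libraries (2.61, adjusted p = 0.0364), and kept its call only without KO library 2. Hemoglobin transcripts made up 0.133 ± 0.0366% of counts in KO libraries and 0.0197 ± 0.006% in flox libraries (SD, n = 3 each); the groups did not overlap, and the 2-sided exact permutation test gave p = 0.1, the smallest 3 against 3 allows (0.3 after adjustment over 3 shares tested). In iron handling, 2 of 18 genes rose: Slc40a1, the iron exporter ferroportin, with 15.9, 18.6 and 16.8 CPM in KO libraries and 9.57, 8.06 and 8.68 CPM in flox libraries (0.97, adjusted p = 0.000277), and Cybrd1, a ferric reductase (0.58, adjusted p = 0.0169; lost without KO library 1 or flox library 1 or 2). Hmox1, which breaks down heme, gave 0.59 and did not pass (adjusted p = 0.618). The erythroid calls fell to 2 without KO library 1, KO library 3, flox library 1 or flox library 2.

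In the vessel wall, 10 of 28 basement membrane and matrix genes rose and 0 fell (median 0.47). Fn1, fibronectin, had 185, 200 and 179 CPM in KO libraries and 68.6, 67.5 and 69.8 CPM in flox libraries (1.46 ± 0.17, adjusted p = 0.000273). Lama5, a laminin chain of endothelial basement membrane, had 27.7, 29.8 and 28.3 CPM in KO libraries and 14.2, 15.3 and 15.1 CPM in flox libraries (0.94, adjusted p = 0.00053). Col3a1, fibrillar collagen, rose by 1.48 (adjusted p = 0.00364) and was the only 1 of 15 fibroblast genes to do so. Of 12 pericyte genes, 8 rose, among them Rgs5 at 173, 184 and 160 CPM in KO libraries and 80.0, 83.8 and 101 CPM in flox libraries (0.97, adjusted p = 6.32e-05). Of 12 genes of vascular smooth muscle 0 were called by edgeR or DESeq2, 3 had an unadjusted p under 0.05, and Acta2, smooth muscle actin, overlapped between groups at 4.94 to 7.10 CPM in KO libraries and 4.29 to 5.91 CPM in flox libraries. The number of matrix genes called was 4 without KO library 1, 6 without flox library 1 and 6 without flox library 2, and the pericyte count was 2 to 4 with any one library left out.

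Of 27 genes of TGF-beta and BMP signalling, 7 rose and 0 fell. Acvr2b and Gdf10 of the same family, given above as lower, were not on this list. The ligand Tgfb1 had 8.72, 8.75 and 8.92 CPM in KO libraries and 4.69, 4.87 and 4.82 CPM in flox libraries (0.88 ± 0.12, adjusted p = 0.00108), with very little spread in either group. The endothelial receptors rose too: Acvrl1 (ALK1) by 1.26, Eng (endoglin) by 0.76 and Tgfbr2 by 0.71 (adjusted p = 0.000332, 0.00271 and 0.0133). The targets Id1 and Id3, inhibitors of basic helix-loop-helix factors, rose by 0.72 and 0.41 (adjusted p = 0.0325 and 0.00875), and Bmp2 by 0.77 (adjusted p = 0.0279). Id1 and Bmp2 kept their call only without KO library 3 or flox library 3, Tgfbr2 lost its call without KO library 2 or flox library 1 or 3, and Id3 without KO library 1. The number called was 4 without KO library 1, KO library 2 or flox library 1. Of 16 Notch genes, 3 rose: the endothelial receptor Notch4 by 0.85, the ligand Jag1 by 0.72 and the mural cell target Heyl by 0.93 (adjusted p = 0.0037, 0.00971 and 0.0154). Jag1 lost its call without flox library 1, and Heyl without KO library 1 or flox library 2 or 3. Of 33 Wnt genes, 3 rose and Fzd2 fell. Adgra2, the endothelial co-receptor GPR124, had 26.8, 29.6 and 28.0 CPM in KO libraries and 18.9, 19.3 and 19.7 CPM in flox libraries (0.54, adjusted p = 0.00589), and Tcf7, a nuclear effector, rose by 0.76 (adjusted p = 0.00897). Fzd6 rose by 0.50 (adjusted p = 0.0364), or with a replicate block gave an adjusted p of 0.07, and kept its call only without flox library 2.

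Of 18 coagulation genes, 5 rose and 0 fell. Thbd, thrombomodulin, which turns thrombin into an anticoagulant, had 52.6, 48.2 and 45.7 CPM in KO libraries and 18, 19.3 and 17.5 CPM in flox libraries (1.42, adjusted p = 0.000213). Vwf, von Willebrand factor, had 60.3, 55.9 and 47.3 CPM in KO libraries and 11.7, 17.8 and 16.2 CPM in flox libraries (1.84, adjusted p = 0.00337), and F5, factor V, rose by 1.31 (adjusted p = 0.00333). Procr, the endothelial protein C receptor, had 1.74, 1.61 and 1.13 CPM in KO libraries and 0.197, 0.602 and 0.464 CPM in flox libraries and did not pass (adjusted p = 0.0902).

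Further genes rose by large folds or with small p-values. Bst1, an ADP-ribosyl cyclase (CD157) found on some vascular endothelial cells and on leukocytes, was counted 194, 254 and 161 times in KO libraries and 12, 15 and 9 times in flox libraries, a log2 fold change of 4.18 ± 0.40 (adjusted p = 6e-05). Aplnr, the apelin receptor of sprouting and venous endothelium, had 3.30, 3.31 and 2.60 CPM in KO libraries and 0.341, 0.301 and 0.599 CPM in flox libraries (2.86, adjusted p = 0.000277). Pglyrp1, a peptidoglycan-binding protein of innate immunity, had 17.4, 14.6 and 14.7 CPM in KO libraries and 3.82, 3.29 and 3.91 CPM in flox libraries (2.08, adjusted p = 4.18e-05). H19, an imprinted noncoding RNA mostly silent after birth, was counted 49, 60 and 62 times in KO libraries and 14, 6 and 12 times in flox libraries (2.55, adjusted p = 0.00434). Nos3, endothelial nitric oxide synthase, rose by 1.44 (adjusted p = 3.88e-05). Aldh1a1, a retinaldehyde dehydrogenase, rose by 1.10 (adjusted p = 3.88e-05). Slc52a3, a riboflavin transporter, rose by 1.76 (adjusted p = 0.000118). Pdpn, podoplanin of reactive astrocytes and fibroblasts, rose by 0.84 (adjusted p = 0.000172). Pltp, phospholipid transfer protein, rose by 0.89 (adjusted p = 0.000172).

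Gm6614, named after its values were seen, was almost absent from flox brain, with 189, 222 and 139 counts in KO libraries against 3, 1 and 0 in flox libraries (adjusted p = 2.05e-05). In the RefSeq annotation it lies in the Slco1 transporter cluster that also holds Slco1c1, the gene whose promoter drives the Cre. Slco1c1 itself did not pass and varied within both groups, with 108, 115 and 180 CPM in KO libraries and 106, 157 and 55.0 CPM in flox libraries (0.34, adjusted p = 0.673). The transgene is in every KO library and in no flox library, so its part in the Gm6614 difference cannot be told apart from that of Pdcd10 loss.

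With all libraries included, metabolic and stress lists changed in few members. In the list of HIF targets and glycolysis, 3 of 23 rose (median 0.0864): Slc2a1, the barrier glucose transporter, by 0.78 (adjusted p = 0.01), Vegfa, the vascular growth factor, by 0.46 (adjusted p = 0.0294) and the glycolytic enzyme Eno1 by 0.20 (adjusted p = 0.0475, and 0.0668 with a replicate block). None was called without KO library 1, flox library 1 or flox library 2, and Eno1 kept its call only without flox library 3. Of 16 p53 targets, Eda2r, a death-domain receptor, rose by 1.65 with 1.84, 2.14 and 1.65 CPM in KO libraries and 0.646, 0.549 and 0.599 CPM in flox libraries (adjusted p = 0.000607), and Ccng1, cyclin G1, rose by 0.34 (adjusted p = 0.005). Of 21 cholesterol synthesis genes, 19 lay above 0 (median 0.127) and 1 passed. Without flox library 3, 7 passed and the median was 0.21. Without any other single library, 1 passed.

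**Figure D4:**
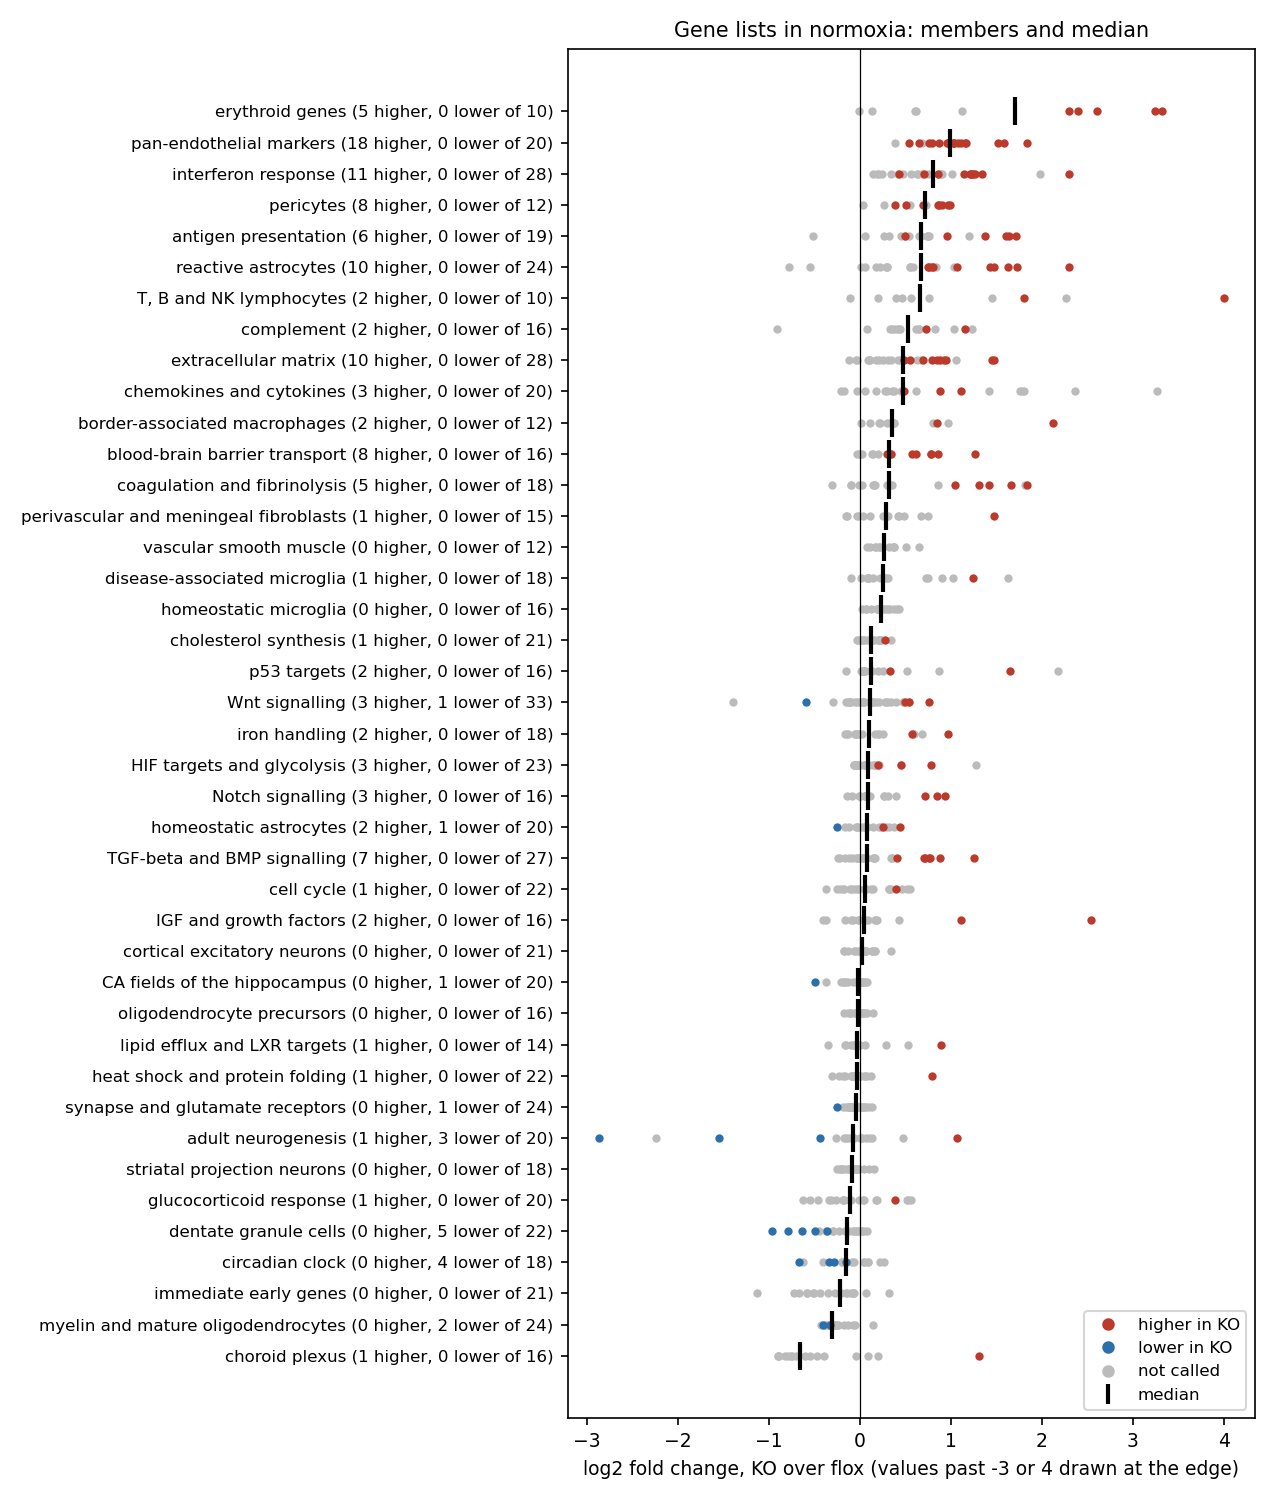
Log2 fold change, KO over flox, of the tested members of 41 gene lists in normoxia, ordered by their median (black tick); red points are higher, blue points lower and grey points not called, and the label gives the counts. Erythroid, endothelial and interferon lists have the highest medians, and most lower members are in the neurogenesis, dentate granule cell, clock and myelin lists.

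The lower genes were then looked up in the 12% oxygen groups, which share no library with the normoxia comparison. There 513 genes were lower and 1526 higher in KO (2.28% and 6.78% of the genes tested). Of the 83 genes lower in normoxia, 79 were below 0 in hypoxia, beside 52.1% of all genes tested. In hypoxia 29 of the 83 were called lower and 0 higher. Their median was −0.177, against −0.36 in normoxia. The 83 were chosen by their normoxia values, which tends to enlarge the normoxia median. These medians therefore do not measure a difference between conditions. Of the 441 higher genes, 441 lay above 0 in hypoxia and 414 were called. KO hypoxia library 1 had a hemoglobin share of 1.72% against 0.345% to 0.419% in the other KO hypoxia libraries; without it, 80 of the 83 were below 0 and 22 were called lower, with 1.27% of all genes lower.

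Igfbpl1 was lower in both conditions, at −2.87 ± 0.29 in normoxia and −1.96 ± 0.27 in hypoxia (adjusted p = 0.000236 in hypoxia), as were Draxin (−0.83 in hypoxia, adjusted p = 0.0495), Dsp (−0.60, adjusted p = 0.00756) and Sox11 (−0.39, adjusted p = 0.0201). Fzd2 was −0.84 in hypoxia (adjusted p = 5.52e-05) and Hsd11b1 −0.67. Dcx and Eomes, which had not passed in normoxia, were lower in hypoxia at −0.34 and −2.95 (adjusted p = 0.00748 and 0.0137). The dentate genes C1ql2, Prox1, Zbtb20 and Dock10 gave −0.22, −0.26, −0.15 and −0.09 in hypoxia and did not pass there (adjusted p = 0.172, 0.101, 0.282 and 0.275). Of 18 clock genes, 4 were lower in hypoxia and 0 higher, beside 2.28% and 6.78% of all genes tested. Dbp and Tef were lower there, at −0.20 and −0.13 (adjusted p = 0.0234 and 0.0355). Ciart and Per3 did not pass in hypoxia, at −0.42 and −0.10 (adjusted p = 0.0694 and 0.38). Myelin genes had a median of −0.0885 in hypoxia with 0 called. In a test of the difference between conditions, edgeR called 0 of 22507 genes, with 1635 at an unadjusted p under 0.05, 26 of them among the 83 lower genes. The normoxia values that chose the 83 also enter this test, which raises their number at that level. The 26 are therefore not a sign of a difference between conditions. C1ql2 had an unadjusted p of 0.000973 and an adjusted p of 0.563, so a difference between the conditions was not shown for it.

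**Figure D5:**
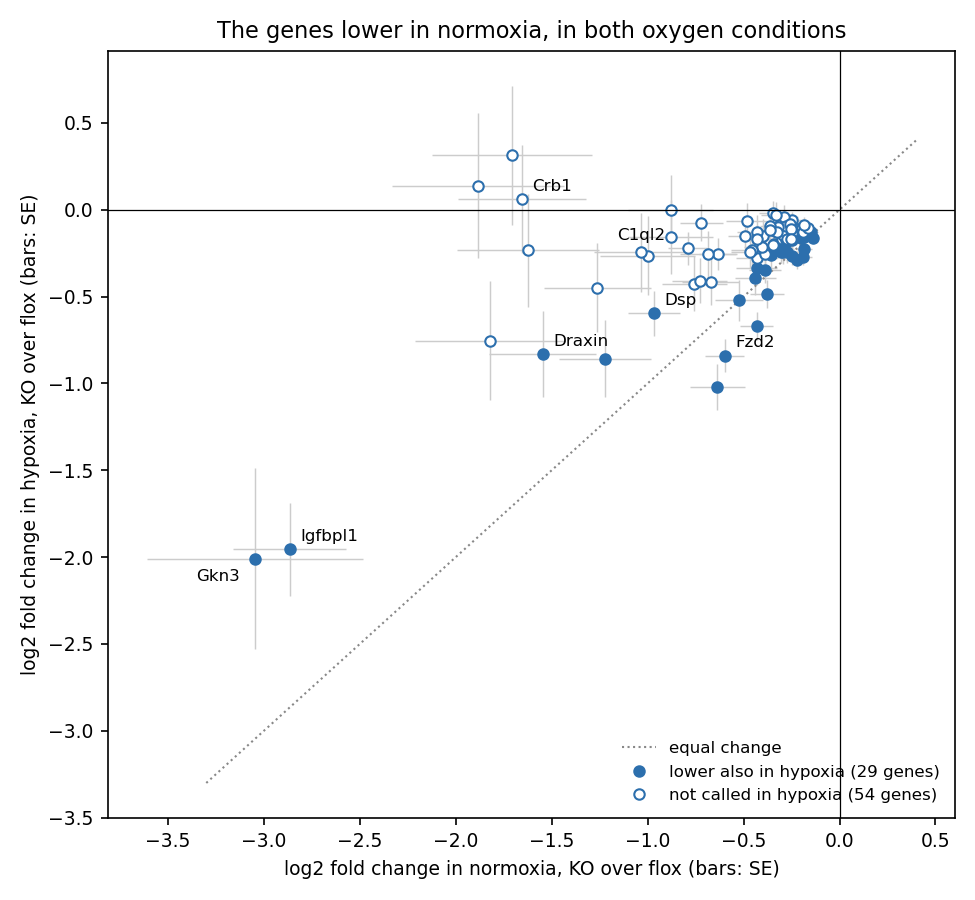
Log2 fold change, KO over flox, of the 83 genes lower in normoxia, in normoxia (horizontal) and hypoxia (vertical); bars are SE, filled points are lower in hypoxia too (29) and open points were not called there (54), and the dotted line marks equal change. Most points lie below 0 on both axes, and many of the open points lie above the dotted line. The genes were chosen by their normoxia values, so a place above the line does not show a weaker change in hypoxia.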

How the data were processed

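The authors deposited raw read counts per gene with RPKM values beside them; the submitters' processing notes name HISAT2, edgeR and GRCm39, with no version. Neither the counting program nor its strand setting is named there, so overlapping and antisense genes are uncertain. The table held 55416 identifiers, 52083 with a symbol; the others held 0.346% of counts. In edgeR 4.0.16 (R 4.3.3), genes were kept by filterByExpr over the 4 groups, libraries were scaled by TMM, all 13 libraries shared one fit, and each comparison was tested with glmQLFTest and Benjamini-Hochberg adjustment. The SE is the log2 fold change over the root of F. CPM use TMM-scaled library sizes. Deposited RPKM entered only the limma 3.58.1 alternatives (log2 with a pseudocount of 1 or 0.1); DESeq2 1.42.0 was run on the counts. The test was tried on simulated counts.

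The members, gene lists and tests were chosen with earlier results of these data known. By rule, genes were named from the 20 largest falls and 12 smallest p among lower genes of at least 1 CPM. Higher genes came from the 15 largest rises and 12 smallest p outside the endothelial, barrier, pericyte and reactive astrocyte lists. Each list with a call added up to 4 called and 2 abundant uncalled members. Some genes chosen by this rule, in both directions, are not described above. Further list members were chosen after their values were seen. Deviations of same-numbered libraries from their group means correlated at 0.106, 0.103 and 0.374 over 16609 genes (KO library 2 with flox library 1 gave 0.231), and the labels share replicate numbers between groups, so a fit with the number as a block was also made. No pair of libraries agreed within counting noise. Promoters are RefSeq's on GRCm38.p6, not the build of the counts. Alternatives left out each library, changed the scaling, filter or tool, added a sex term or a block, or kept only libraries with Y-linked transcripts. A few list members are not reported here.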

Additional observations from a re-analysis of the deposited data

How the results depend on the processing

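With the replicate block 510 genes were called, 431 higher and 79 lower, of which 387 and 58 were among the 441 and 83; of the genes named by rule, Tef, Eno1 and Fzd6 lost their call. The total of 524 became 995 with no filter, 874 with DESeq2, 249 and 333 with limma on log2(RPKM + 1) and log2(RPKM + 0.1), 311 with only the libraries holding Y-linked transcripts, and 250 to 397 with 1 library left out. The 441 higher genes became 740, 664 and 212 with no filter, DESeq2 and limma (+ 1), 239 with only the libraries holding Y-linked transcripts, and 216 to 350 with 1 library left out. The 83 lower genes became 255, 210, 37 and 39 with no filter, DESeq2, limma (+ 1) and limma (+ 0.1), and 25 to 65 with 1 library left out. Leaving libraries out means fewer samples, and the other causes were not tested. Other scaling gave 516 (RLE) and 531 (no composition factor, 72 lower), and the 6 normoxia libraries alone gave 550, or 477 with the block, a fit added after seeing the data. No called gene named by rule reversed its direction under any of these; uncalled genes near 0 could, as Nptx1 did (0.05 without flox library 1). Genes of low counts, such as Cd79b, are limited by depth.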
